A study of Mus musculus with 30 samples.

Results

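Potassium channel genes were followed in C2C12 cells, a mouse myoblast line that forms myotubes in differentiation medium and turns to the osteoblast lineage when bone morphogenetic protein 2 (BMP2) is added. The members were all genes with a symbol starting with Kcn, 84 of the 18194 genes that the Affymetrix mouse arrays measure with a probe set naming 1 gene. Together they had 167 of the 45101 probe sets, and each gene was read from whichever of its probe sets was brightest on average across the 30 arrays. Of the 84 genes, 81 encode proteins and 3 are non-coding transcripts of channel loci.

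The line C2C12-pMirn378 was transduced with a lentivector that expresses the precursor of miR-378, and the control line, C2C12-pMirn0, carried the empty parent vector. Both vectors also express the fluorescent marker copGFP, by which transduced cells were sorted. Each line was profiled undifferentiated (d0) and after 3 or 6 days of differentiation (d3, d6), either in the presence of BMP2 at 300 ng/ml or untreated, with 3 arrays per group from triplicate experiments, which gives 10 groups. Each vector was represented by a single sorted population, so p-values measure the spread between replicate experiments of these populations.

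Potassium channels let potassium leave or enter the cell along its gradient and so set the membrane potential. The family holds voltage-gated channels, silent modifier subunits that only work together with other subunits, ether-a-go-go (EAG) channels, inward rectifiers, two-pore leak channels, calcium-activated and related Slo channels, and accessory subunits without a pore. In human myoblasts, hyperpolarization through EAG and inward rectifier channels is known to precede differentiation and fusion.

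Average expression values (AEV) are the deposited array intensities on a linear scale, and changes are log2 ratios with their standard errors (SE). A probe set was called dim where all 10 group means were under the overall median AEV of 76.5. By this measure 55 of the 84 members were dim, and 29 exceeded it in at least 1 group. Replicates of the 29 genes differed by a median SD of 0.349 on the log2 scale, against 0.758 for the 55 dim genes. A difference was called where limma's p, adjusted by Benjamini-Hochberg over all probe sets, was under 0.005 and the log2 ratio beyond 0.6 in either direction.

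The cells followed their labels. The summed AEV of 7 skeletal muscle markers at d6 was 4393 to 4630 in C2C12-pMirn378 with BMP2, against 78370 to 91160 untreated, and 6161 to 6689 in C2C12-pMirn0 with BMP2, against 92720 to 104700 untreated. The sum of 5 osteoblast markers at d6 was 11550 to 14180 in C2C12-pMirn378 with BMP2, against 1574 to 1858 untreated, and 5985 to 6428 in C2C12-pMirn0 with BMP2, against 1833 to 2366 untreated. Sums for some other cell types were also higher with BMP2 at d6. The sum of 4 adipocyte markers was 2830 to 2964 in C2C12-pMirn378 with BMP2, against 120.5 to 203.9 untreated, and 4336 to 4586 in C2C12-pMirn0, against 90.92 to 159.6. The sum of 5 neuronal markers was 7020 to 7847 in C2C12-pMirn378, against 2044 to 2275, and 6891 to 7241 in C2C12-pMirn0, against 3256 to 3422. The sum of 5 chondrocyte markers was 1033 to 1264 in C2C12-pMirn378, against 548.1 to 591.9, and 984 to 1068 in C2C12-pMirn0, against 557.7 to 618.5. The largest part of each rise came from 1 gene: Fabp4 averaged 2623 AEV with BMP2 at d6 in C2C12-pMirn378, against 41.08, Col2a1 averaged 436.4, against 12.35, and Stmn2 averaged 7012, against 1753, and all 3 were called higher with BMP2 in both lines at both days. Sox9 averaged 688 there, against 481.9, and was called higher only at d3, in both lines. Pparg averaged 261.8, against 89.45, and was called higher at d6 in both lines and at d3 in C2C12-pMirn0. Tubb3 was called higher at d3 in C2C12-pMirn378 and lower at d6 in C2C12-pMirn0, and Syt1 was not called. Adipoq and Cidec of the 4 adipocyte genes, Acan, Col10a1 and Matn3 of the 5 chondrocyte genes, and Snap25 and Rbfox3 of the 5 neuronal genes were dim. In such bulk samples, fewer cells of a type and less RNA per cell cannot be told apart.

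Of the 84 members, 20 were called in at least 1 of the 13 comparisons below, and 17 of these were among the 29 that were not dim. Of all probe sets 37.4% were called in at least 1 of these comparisons, and 59.6% of those that were not dim. The calls covered 6 of the 8 calcium-activated and related channels, 4 of the 15 accessory subunits, 3 of the 12 two-pore channels, 2 of the 13 voltage-gated Kcna to Kcnd genes, 2 of the 9 modifier subunits, 2 of the 15 inward rectifiers and 1 of the 6 EAG channels. None of the 3 Kcnq genes and none of the 3 non-coding transcripts was called by its brightest probe set. The 3 Kcnq genes were dim throughout.

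The promoters of 3 members are shown because these genes moved in opposite directions when BMP2 was added: Kcnn4 and Kcnf1 were higher with BMP2 than without it, and Kcnj12 was lower. Each window runs from 250 bases before to 50 after 1 RefSeq start site (GRCm38.p6), the only one the table used here gives for these genes, is printed 5′ to 3′ on the gene's own strand and lies at chr7:24370013-24370312 (Kcnn4, + strand), chr12:17176839-17177138 (Kcnf1, - strand) and chr11:61065554-61065853 (Kcnj12, + strand). The start site is the 5′ end of the annotated gene for Kcnf1, but lies 437 bases inside it for Kcnn4 and 43240 bases inside it for Kcnj12, whose upstream starts were not searched. Capitals mark the E-box core CANNTG, the letters that myogenic and other basic helix-loop-helix factors recognize.
Kcnn4: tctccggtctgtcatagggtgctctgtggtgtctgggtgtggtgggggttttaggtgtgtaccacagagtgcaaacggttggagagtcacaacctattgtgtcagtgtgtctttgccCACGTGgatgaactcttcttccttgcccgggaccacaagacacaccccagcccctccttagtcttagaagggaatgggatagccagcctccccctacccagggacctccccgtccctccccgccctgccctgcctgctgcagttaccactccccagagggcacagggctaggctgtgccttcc
Kcnf1: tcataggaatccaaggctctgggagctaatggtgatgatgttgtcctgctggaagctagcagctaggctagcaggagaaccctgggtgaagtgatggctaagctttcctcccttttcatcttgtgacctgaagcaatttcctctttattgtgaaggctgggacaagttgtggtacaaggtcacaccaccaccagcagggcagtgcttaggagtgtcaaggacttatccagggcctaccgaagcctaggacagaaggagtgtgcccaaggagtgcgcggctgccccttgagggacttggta
Kcnj12: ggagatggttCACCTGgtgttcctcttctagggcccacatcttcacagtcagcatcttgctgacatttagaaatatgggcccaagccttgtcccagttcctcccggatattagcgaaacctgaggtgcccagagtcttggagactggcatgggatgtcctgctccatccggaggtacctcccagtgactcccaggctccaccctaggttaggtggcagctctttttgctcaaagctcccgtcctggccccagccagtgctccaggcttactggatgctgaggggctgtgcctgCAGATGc

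The core reads the same on both strands, so 1 search covers both. It stood at 1 place in the Kcnn4 window, at 2 in the Kcnj12 window and at none in the Kcnf1 window, with first bases at position -133 for Kcnn4 and at -240 and 43 for Kcnj12, counted from the start site as 0. Of 32851 RefSeq promoter windows of this length, 72.3% held at least 1 core, with a median of 1, and 73% of the 89 windows found for 64 of the 84 members did. A match of 6 letters, of which 2 are free, is a description of the sequence and not of binding.

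**Figure D1:**
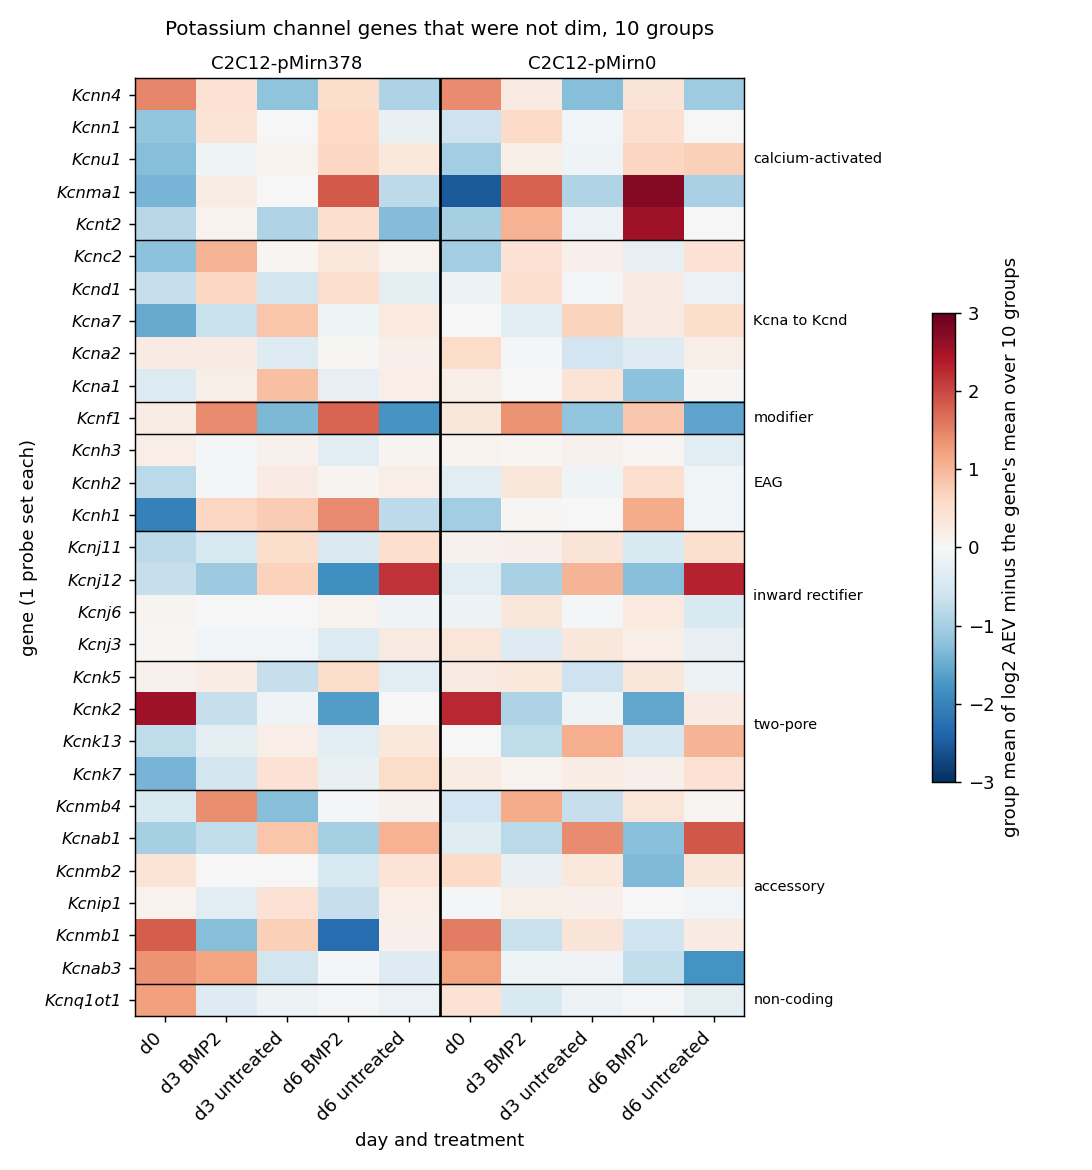
Group means of log2 AEV for the 29 genes that were not dim, each minus the gene's own mean over the 10 groups (colour, log2 scale), with C2C12-pMirn378 on the left and C2C12-pMirn0 on the right and genes ordered by family. In both lines Kcnk2 is highest at d0, Kcnj12 and Kcnab1 are highest without BMP2 at d6, and Kcnf1 at d6 with BMP2 is higher in C2C12-pMirn378.

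In the 8 members with the highest AEV, the probe set means over the 30 arrays were 1105 for Kcnn4, 537 for Kcnf1, 340 for Kcnj11, 244 for Kcnmb4, 181 for Kcnh3, 154 for Kcnj12, 145 for Kcnc2 and 128 for Kcnk5. Brightness differs between probes, so this is no order of abundance. For 6 of these 8 genes at least 1 comparison was called, the exceptions being Kcnj11 and Kcnh3.

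The first comparison asked which channel genes changed as control C2C12-pMirn0 cells differentiated without BMP2, calling a gene where adjusted p was under 0.005 for d6 over d0 and the log2 ratios over d0, averaged over both days, were beyond 0.6. Kcnab1, Kcnc2, Kcnj12 and Kcnu1 rose, and Kcnab3, Kcnf1, Kcnk2 and Kcnn4 fell. These are 4.76% of the 84 members in each direction, where 8.7% of all probe sets rose and 10.3% fell. Among the 29 members that were not dim, 13.8% rose and 13.8% fell. Of all probe sets that were not dim, 14.4% rose and 16.8% fell. The median log2 ratio was 0.02 over the members and -0.08 over all probe sets.

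Kcnn4 encodes the intermediate-conductance calcium-activated channel, known from proliferating and undifferentiated cells. In C2C12-pMirn0 its AEV was 2318, 2342 and 2308 at d0, then 285, 389 and 417 at d3 and 530, 410 and 344 at d6. All 6 differentiated arrays lay below all 3 arrays of d0. The log2 ratio over d0 was -2.69 at d3 and -2.46 at d6 (SE 0.169 each), with an adjusted p of 4.57e-11 in limma at d6. In C2C12-pMirn378 the same gene had 2269, 2686 and 2367 AEV at d0, 453, 367 and 326 at d3 and 427, 511 and 443 at d6.

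Kcnk2, the mechanically gated two-pore channel, fell by 2.39 at d3 and by 2.02 at d6 on the log2 scale (SE 0.252, adjusted p = 6.68e-07 in limma at d6). Its AEV in C2C12-pMirn0 was 396, 307 and 350 at d0, 72.8, 62.6 and 64.5 at d3 and 80.5, 103 and 76.8 at d6. The group of d0 did not overlap the others. Kcnf1, a modifier subunit that forms working channels only with other voltage-gated subunits, had 550, 418 and 476 AEV at d0, 173, 172 and 152 at d3 and 123, 113 and 141 at d6 in C2C12-pMirn0. Its log2 ratio was -1.53 at d3 and -1.93 at d6 (SE 0.132, adjusted p = 4.51e-11 in limma at d6).

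Kcnab3, a beta subunit of voltage-gated channels, had 79.4, 93.0 and 120 AEV at d0, 42.7, 31.2 and 42.6 at d3 and 35.6, 4.92 and 9.57 at d6, so that it was above the overall median at d0 alone. Its call (mean log2 ratio -2.17, adjusted p = 0.00121 in limma) was lost without d0 replicate 3, d6 untreated replicate 2 or d6 untreated replicate 3 of C2C12-pMirn0 (adjusted p up to 0.0138), and also when only the arrays of C2C12-pMirn0 at d0, d3 and d6 without BMP2 entered the fit (0.0104). A second, dim probe set of the gene was not called (mean log2 ratio -1.10, adjusted p = 0.146).

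Kcnj12, a strong inward rectifier known from muscle, rose at both days. In C2C12-pMirn0 it had 86.2, 79.7 and 61.2 AEV at d0, 218, 173 and 185 at d3 and 416, 474 and 510 at d6. The 3 days did not overlap. The log2 ratio over d0 was 1.35 at d3 and 2.64 at d6 (SE 0.414, adjusted p = 1.66e-05 in limma at d6). In C2C12-pMirn378 its AEV was 86.6, 62.3 and 37.1 at d0, 183, 133 and 146 at d3 and 432, 355 and 486 at d6.

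Kcnab1, a beta subunit that speeds the inactivation of voltage-gated channels, had 63.2, 35.9 and 54.5 AEV at d0, 156, 158 and 199 at d3 and 239, 223 and 233 at d6 in C2C12-pMirn0, which is 2.22 on the log2 scale for d6 over d0 (SE 0.318, adjusted p = 4.99e-06 in limma). Its second, dim probe set was called too (mean log2 ratio 3.57, adjusted p = 0.000564). Kcnc2, a fast voltage-gated channel, had 81.2, 58.8 and 53.6 AEV at d0, 128, 155 and 157 at d3 and 202, 146 and 187 at d6, and its d6 value was 1.48 above d0 on the log2 scale (SE 0.207, adjusted p = 3.67e-06 in limma). Kcnu1, a Slo channel best known from sperm, had 21.9, 25.6 and 21.6 AEV at d0, 35.5, 45.8 and 51.2 at d3 and 69.3, 84.8 and 80.1 at d6, a log2 difference of 1.76 between d6 and d0 (SE 0.244, adjusted p = 3.11e-06 in limma). With values under 50 set to 50 its mean log2 ratio was 0.32 and no longer called. The 5 markers of dividing cells moved with these genes, at a summed AEV of 26360 to 27610 at d0, 1876 to 2112 at d3 and 2578 to 2812 at d6 in C2C12-pMirn0, and their part in the changes was not tested.

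**Figure D2:**
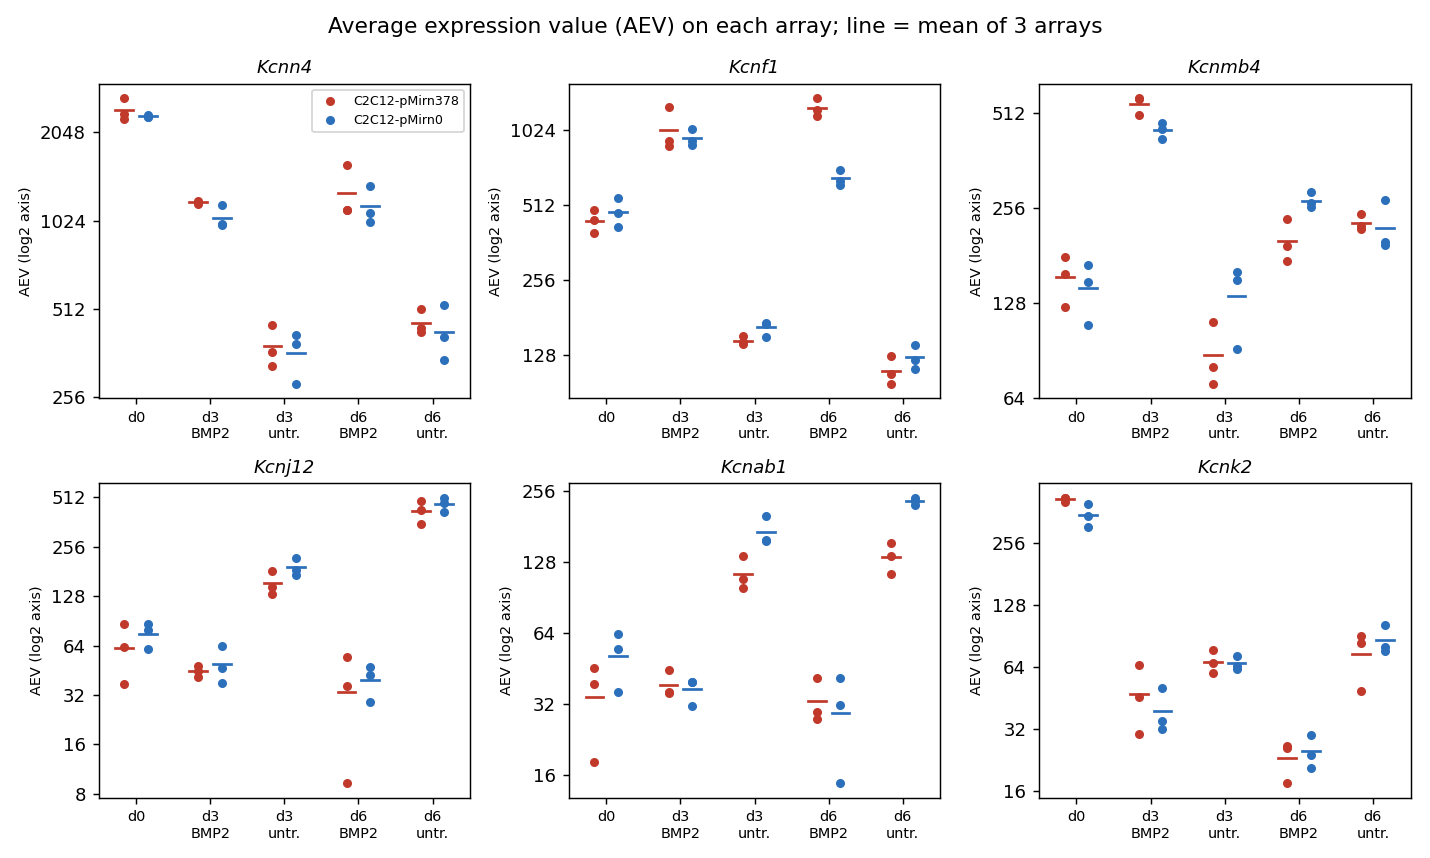
AEV (log2 axis) of 6 channel genes on each of the 30 arrays, red for C2C12-pMirn378 and blue for C2C12-pMirn0, with a bar at the mean of 3 arrays. Kcnn4 and Kcnf1 are lowest without BMP2 at d3 and d6, Kcnj12 and Kcnab1 are highest there, Kcnmb4 is highest at d3 with BMP2 and Kcnk2 is highest at d0, in both lines.

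With BMP2, C2C12-pMirn0 cells also changed relative to d0. Kcnc2, Kcnma1, Kcnmb4, Kcnn1, Kcnt2 and Kcnu1 rose (7.14% of 84 members, against 9.08% of all probe sets), and Kcnk2 and Kcnn4 fell (2.38%, against 8.52%). Among the 29 members that were not dim, 20.7% rose and 6.9% fell. Of all probe sets that were not dim, 15% rose and 14.1% fell. The median log2 ratio was -0.02 over both the members and all probe sets. The comparison shares its d0 arrays with the one without BMP2, and Kcnc2, Kcnu1, Kcnk2 and Kcnn4 were called in both. The 5 markers of dividing cells were lower here too (5 of 5), and the osteoblast markers higher (5 of 5), and their part in the changes was not tested.

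Kcnma1, the pore-forming subunit of the large-conductance calcium-activated channel (BK), showed the largest rise. Its AEV in C2C12-pMirn0 was 11.3, 2.42 and 1.68 at d0, 63.0, 84.3 and 65.3 at d3 with BMP2 and 116, 147 and 154 at d6 with BMP2. The log2 ratio over d0 was 4.29 at d3 and 5.27 at d6 (SE 0.68, adjusted p = 1.22e-06 in limma at d6). Since the values of d0 lie far below the median AEV, the size of this ratio depends on how low values are handled, and the mean ratio ranged over 0.98 to 5.61 across the alternatives, all of them called. Of its 4 other probe sets, all dim, 1 was also called (mean log2 ratio 2.58, adjusted p = 3.1e-05) and 3 were not.

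Kcnmb4, the accessory subunit of BK best known from brain, had 109, 169 and 149 AEV at d0, 423, 457 and 475 at d3 and 288, 266 and 257 at d6 with BMP2. It was highest at d3 in both lines. Its log2 ratio over d0 was 1.69 at d3 and 0.95 at d6 (SE 0.206, adjusted p = 0.000735 in limma at d6), and the call was lost without d0 replicate 1 of C2C12-pMirn0 (adjusted p = 0.00886). Kcnn1, a small-conductance calcium-activated channel, had 89.9, 64.0 and 64.6 AEV at d0, 152, 176 and 167 at d3 and 164, 159 and 151 at d6, a d6 over d0 difference of 1.13 on the log2 scale (SE 0.158, adjusted p = 3.48e-06 in limma), and its second probe set was called too (mean log2 ratio 2.25, adjusted p = 0.00288).

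Kcnt2, a sodium-activated channel, had 11.7, 11.2 and 4.89 AEV at d0, 38.6, 32.6 and 34.9 at d3 and 98.6, 94.6 and 106 at d6 with BMP2. The 3 days did not overlap. Its log2 ratio at d6 was 3.53 (SE 0.818, adjusted p = 0.00139 in limma), and the call was lost without d0 replicate 3, d6 BMP2 replicate 1 or d6 BMP2 replicate 3 of C2C12-pMirn0 (adjusted p up to 0.0111) and with values under 50 set to 50. Kcnu1 had 72.3, 39.4 and 54.3 AEV at d3 and 63.2, 88.5 and 74.0 at d6 with BMP2, a d6 over d0 difference of 1.70 on the log2 scale (SE 0.244, adjusted p = 5.49e-06 in limma), and was called in none of the comparisons of BMP2 with untreated cells. Setting values under 50 to 50 ended its call as well.

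Kcnk2 fell with BMP2 as it did without it. In C2C12-pMirn0 its AEV was 34.9, 32.0 and 50.4 at d3 and 23.9, 30.01 and 20.6 at d6 with BMP2, and its d6 over d0 log2 ratio was -3.83 (SE 0.252, adjusted p = 2.53e-11 in limma). Kcnn4 with BMP2 had 996, 993 and 1159 AEV at d3 and 1089, 1345 and 1016 at d6, and its d6 over d0 log2 ratio was -1.02 (SE 0.169, adjusted p = 3.25e-05 in limma). Kcnc2, the smallest of the 6 rises and named here after its values were seen, had 188, 150 and 200 AEV at d3 and 117, 97.8 and 118 at d6. Its call (log2 ratio 0.80 at d6, adjusted p = 0.00371 in limma) was lost without d0 replicate 2 or 3 or d6 BMP2 replicate 1 or 3 of C2C12-pMirn0 (adjusted p up to 0.0272), with only the arrays of the comparison in the fit and with the arrays scaled to 1 median.

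The next question was what BMP2 did at a given day in each line. Kcnf1 and Kcnn4 were higher with BMP2 than without it in both lines at both days, and Kcnj12 and Kcnab1 were lower in all 4 comparisons. Kcnk5 was called higher in 3 of the 4 and Kcnma1 in 3 of the 4. Kcnmb4 was called higher only at d3, in both lines, and Kcnk2 lower only at d6, in both lines, and the difference between days was not tested for either.

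In C2C12-pMirn378 at d3, 6 members were higher with BMP2 (7.14%, against 9.92% of all probe sets) and 2 were lower (2.38%, against 8.11%). In the same line at d6, 6 were higher (7.14%, against 8.71%) and 4 were lower (4.76%, against 8.71%). In C2C12-pMirn0 at d3, 6 were higher (7.14%, against 8.63%) and 3 lower (3.57%, against 6.75%), and at d6, 4 were higher (4.76%, against 9.66%) and 4 lower (4.76%, against 8.24%). In each case the share of the 84 members called was below that of all probe sets, but 29 of the 84 members were not dim, against 26511 of the 45101 probe sets. Among genes that were not dim, 20.7% of the 29 members were called higher in C2C12-pMirn378 at d3 and d6 and in C2C12-pMirn0 at d3, against 16.6%, 14.5% and 14.4% of the probe sets that were not dim, and 10.3% in C2C12-pMirn0 at d6, against 15.9%. For calls of lower levels the shares were 6.9% and 13.8% in C2C12-pMirn378 at d3 and d6, against 13.2% and 14.1%, and 10.3% in C2C12-pMirn0 at both days, against 11.2% and 13.5%. The median log2 ratio over the 84 members was -0.06 and -0.21 in C2C12-pMirn378 at d3 and d6 and -0.07 and 0.21 in C2C12-pMirn0, against -0.04, -0.02, 0.06 and 0.12 over all probe sets.

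Kcnf1 had the lowest adjusted p of all members in each of the 4 comparisons. In C2C12-pMirn378 its AEV at d3 was 1263, 884 and 928 with BMP2, against 153, 145 and 142 without it, and at d6 it was 1378, 1171 and 1232, against 108, 127 and 98.5. In C2C12-pMirn0 it was 1031, 927 and 895 at d3 with BMP2, against 173, 172 and 152, and 639, 710 and 618 at d6, against 123, 113 and 141. No array with BMP2 overlapped an untreated one. These are ratios of 6.9-fold and 11.4-fold in C2C12-pMirn378 at d3 and d6 (log2 2.79 and 3.51, SE 0.132, adjusted p = 7.54e-14 and 1.38e-15 in limma) and of 5.74-fold and 5.22-fold in C2C12-pMirn0 (log2 2.52 and 2.38, adjusted p = 5.28e-13 and 1.28e-12 in limma).

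Kcnn4 was raised in both lines, and its BMP2 log2 ratio in C2C12-pMirn378 minus that in C2C12-pMirn0 was 0.10 at d3 and 0.01 at d6 (half-width of the 95% interval 0.496). In C2C12-pMirn378 it had 1168, 1187 and 1198 AEV with BMP2 at d3, against 453, 367 and 326 in untreated cells, and 1115, 1592 and 1115 at d6, against 427, 511 and 443. In C2C12-pMirn0 the values were 996, 993 and 1159 at d3, against 285, 389 and 417, and 1089, 1345 and 1016 at d6, against 530, 410 and 344. All arrays with BMP2 lay above all untreated ones and below all arrays of d0. The log2 ratios were 1.65 and 1.45 in C2C12-pMirn378 at d3 and d6 and 1.54 and 1.44 in C2C12-pMirn0 (SE 0.169 each, adjusted p between 3.73e-08 and 3.19e-07 in limma), and the second probe set of Kcnn4 was called in all 4 comparisons too.

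Of the BK subunits, Kcnmb4 was called at d3 in both lines, and Kcnma1 at d3 and d6 in C2C12-pMirn0 and at d6 in C2C12-pMirn378. Kcnmb4 had 505, 572 and 568 AEV with BMP2 in C2C12-pMirn378 at d3, against 70.8, 111 and 80.0 without it, and 423, 457 and 475 in C2C12-pMirn0, against 160, 151 and 91.4. On the log2 scale these rises were 2.68 and 1.79 (SE 0.206, adjusted p = 3.27e-10 and 2.57e-07 in limma). At d6 the values with BMP2 were 194, 236 and 173 in C2C12-pMirn378, against 224, 245 and 219, and 288, 266 and 257 in C2C12-pMirn0, against 195, 200 and 271, and neither difference was called (log2 -0.20 and 0.30, with half-widths of the 95% interval of 0.427).

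For Kcnma1, C2C12-pMirn0 had 63.0, 84.3 and 65.3 AEV with BMP2 at d3, against 11.3, 10.9 and 10.95, and 116, 147 and 154 at d6, against 14.9, 25.6 and 3.06. C2C12-pMirn378 had 16.2, 27.0 and 31.4 with BMP2 at d3, against 21.8, 14.8 and 28.5, and 77.0, 74.4 and 70.2 at d6, against 22.2, 6.25 and 12.7. The groups overlapped only in C2C12-pMirn378 at d3. In log2 ratios this was 0.19 and 2.61 in C2C12-pMirn378 at d3 and d6 (SE 0.68, adjusted p = 0.878 and 0.00403 in limma) and 2.67 and 3.71 in C2C12-pMirn0 (adjusted p = 0.0037 and 0.000122 in limma). The call at d6 in C2C12-pMirn378 was lost without any 1 of its arrays but untreated replicate 1 (adjusted p up to 0.0328), and that at d3 in C2C12-pMirn0 without any 1 of its 6 arrays (up to 0.0168) and with the arrays scaled to 1 median. Both were also lost with values under 50 set to 50, while that at d6 in C2C12-pMirn0 kept its call without each of its 6 arrays and lost it with only those arrays in the fit. The BMP2 log2 ratio in C2C12-pMirn378 minus that in C2C12-pMirn0 was -2.48 at d3 and -1.10 at d6. Neither difference was called (SE 0.962, adjusted p = 0.195 and 0.664 in limma). A second, dim probe set of Kcnma1 was called in C2C12-pMirn0 at d6 as well (log2 2.32, adjusted p = 0.000832).

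Kcnmb1, another accessory subunit of BK, known from smooth muscle, was called lower in C2C12-pMirn378 at d6, with 2.22, 25.7 and 11.5 AEV with BMP2, against 41.1, 65.9 and 38.6. The log2 ratio of -2.44 (SE 0.639, adjusted p = 0.0042 in limma) lost its call without any 1 of the arrays but BMP2 replicate 2 (adjusted p up to 0.0484) and with quantile normalization, and was -0.13 with values under 50 set to 50. In C2C12-pMirn0 at d6 it had 29.9, 30.8 and 23.9, against 55.6, 46.3 and 49.5, a difference without overlap that was not called (log2 -0.84, adjusted p = 0.359 in limma). The difference between the lines in this ratio was not called either (log2 -1.60, SE 0.904, adjusted p = 0.434 in limma).

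Kcnk5, a pH-sensitive two-pore channel, had 175, 211 and 147 AEV with BMP2 at d6 in C2C12-pMirn378, against 115, 88.6 and 89.0, and 145, 145 and 164 at d3 in C2C12-pMirn0, against 94.6, 56.0 and 93.8. At d3 in C2C12-pMirn378, where it was the smallest of the 6 rises and is named after its values were seen, it had 168, 123 and 140, against 70.1, 68.8 and 89.1. These rises were 0.86, 0.93 and 0.92 on the log2 scale in that order (SE 0.188, adjusted p = 0.000819, 0.000389 and 0.000411 in limma). Without untreated replicate 2 or 3 or BMP2 replicate 2 the call at d6 in C2C12-pMirn378 was lost (adjusted p up to 0.00845), and a second, dim probe set was not called. With only the 6 arrays of each comparison in the fit, all 3 calls of Kcnk5 were lost (adjusted p = 0.0277, 0.0466 and 0.0179 in that order).

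Kcnn1 had 166, 144 and 197 AEV with BMP2 at d6 in C2C12-pMirn378, against 100, 108 and 79.1, a log2 ratio of 0.82 (SE 0.158, adjusted p = 0.000213 in limma). At d3 in C2C12-pMirn0 it had 152, 176 and 167, against 118, 107 and 92.6, a log2 ratio of 0.65 (adjusted p = 0.00255 in limma), which was 0.55 with the arrays scaled to 1 median, 0.58 with quantile normalization and 0.57 with an offset of 16, none of them called. Leaving out untreated replicate 2 or 3 or BMP2 replicate 2 or 3 also ended this call. Both calls of Kcnn1 were named after their values were seen, being the smallest of the 6 rises in their comparisons, and its second probe set was called in neither.

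The voltage-gated genes Kcnc2 and Kcnd1 and the EAG channel Kcnh1 were each called in 1 of these 4 comparisons, in C2C12-pMirn378, and none of them passed the test of the difference between the lines. Kcnc2 at d3 had 275, 248 and 279 AEV with BMP2 in C2C12-pMirn378, against 125, 139 and 149 (log2 0.96, SE 0.207, adjusted p = 0.000715 in limma), and 188, 150 and 200 in C2C12-pMirn0, against 128, 155 and 157 (log2 0.28, adjusted p = 0.364). The difference of the 2 log2 ratios was 0.67 (SE 0.293, adjusted p = 0.27 in limma), and the call in C2C12-pMirn378 was lost without untreated replicate 1 (adjusted p = 0.0051).

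Kcnd1, a rapidly inactivating channel, had 107, 164 and 159 AEV with BMP2 at d3 in C2C12-pMirn378, against 45.3, 76.2 and 69.1 (log2 1.18, SE 0.27, adjusted p = 0.00126 in limma), and 108, 125 and 163 in C2C12-pMirn0, against 113, 87.2 and 73.0 (log2 0.54, adjusted p = 0.155). Its call was lost without untreated replicate 1 or BMP2 replicate 2 or 3 (adjusted p up to 0.0138), and neither of its other probe sets, both dim, was called. Kcnh1, a channel that in human myoblasts acts early in differentiation, had 162, 97.1 and 110 AEV with BMP2 at d6 in C2C12-pMirn378, against 67.8, 20.1 and 12.98, and 102, 90.8 and 102 in C2C12-pMirn0, against 29.2, 47.8 and 55.1. Neither pair overlapped. Kcnh1 was thus higher by 2.20 and 1.21 on the log2 scale (SE 0.581, adjusted p = 0.0045 and 0.121 in limma). With values under 50 set to 50, Kcnh1 was called in C2C12-pMirn0 (log2 0.93, adjusted p = 0.000297 in limma). That setting lowers the spread of low values, so this p does not measure the spread between replicates. The call in C2C12-pMirn378 was lost without any 1 of its arrays but untreated replicate 1 (adjusted p up to 0.0414) and with the arrays scaled to 1 median, and its second probe set was called in C2C12-pMirn378 as well (log2 1.34, adjusted p = 0.000795).

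**Figure D3:**
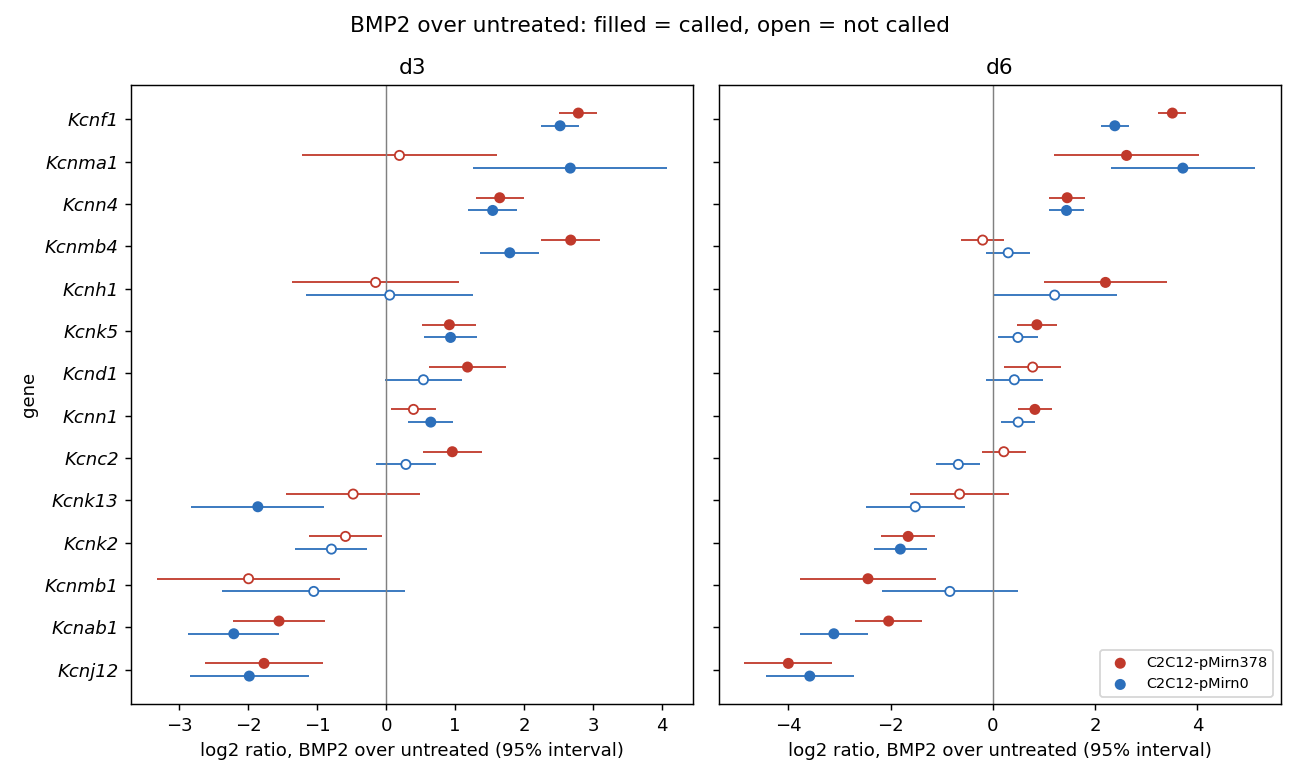
Log2 ratio of BMP2 over untreated cells at d3 (left) and d6 (right) for the 14 genes that were not dim and were called in at least 1 of the 4 comparisons, red for C2C12-pMirn378 and blue for C2C12-pMirn0, with 95% intervals and filled points for calls. Kcnf1 and Kcnn4 are to the right of 0 and Kcnab1 and Kcnj12 to the left of 0 in all 4 comparisons, and at d6 the intervals of Kcnf1 in the 2 lines do not meet.

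On the falling side, Kcnj12 had 45.1, 41.0 and 48.1 AEV with BMP2 at d3 in C2C12-pMirn378, against 183, 133 and 146, and 36.3, 54.3 and 9.23 at d6, against 432, 355 and 486. In C2C12-pMirn0 it had 63.4, 37.9 and 46.7 with BMP2 at d3, against 218, 173 and 185, and 42.5, 47.5 and 29.1 at d6, against 416, 474 and 510. No groups overlapped, and the AEV with BMP2 was under the overall median on every array. The log2 ratios were -1.77 and -4.00 in C2C12-pMirn378 at d3 and d6 and -1.99 and -3.58 in C2C12-pMirn0 (SE 0.414, adjusted p = 0.0015, 4.72e-08, 0.000557 and 2.57e-07 in limma). The call at d3 in C2C12-pMirn378 was lost without untreated replicate 1, BMP2 replicate 1 or BMP2 replicate 2 (adjusted p up to 0.00935).

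Kcnab1 had 36.0, 35.7 and 44.4 AEV with BMP2 at d3 in C2C12-pMirn378, against 135, 108 and 99.4, and 29.6, 41.3 and 27.6 at d6, against 153, 135 and 113. In C2C12-pMirn0 it had 39.7, 39.7 and 31.3 at d3, against 156, 158 and 199, and 31.6, 41.4 and 14.8 at d6, against 239, 223 and 233. The groups did not overlap. The log2 ratios were -1.56 and -2.04 in C2C12-pMirn378 and -2.21 and -3.11 in C2C12-pMirn0 at d3 and d6 (SE 0.318, adjusted p = 0.000402, 1.76e-05, 6.7e-06 and 3.93e-08 in limma). Its second probe set was called lower in 3 of the 4 comparisons and not in C2C12-pMirn378 at d3 (log2 -0.03).

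Kcnk2 at d6 had 17.4, 26.3 and 25.8 AEV with BMP2 in C2C12-pMirn378, against 90.1, 48.9 and 83.7, and 23.9, 30.01 and 20.6 in C2C12-pMirn0, against 80.5, 103 and 76.8. Its log2 ratios were -1.66 and -1.81 (SE 0.252, adjusted p = 1.24e-05 and 3.72e-06 in limma), and at d3 they were -0.59 and -0.80 and not called (adjusted p = 0.0777 and 0.0183). With values under 50 set to 50, the d6 ratio in C2C12-pMirn378 was -0.53 and no longer called. Kcnk13, a two-pore channel inhibited by halothane, had 50.7, 15.2 and 49.9 AEV with BMP2 at d3 in C2C12-pMirn0, against 151, 119 and 103, a log2 ratio of -1.86 (SE 0.465, adjusted p = 0.00311 in limma). Its call was lost without any untreated replicate or BMP2 replicate 2 (adjusted p up to 0.0369). In C2C12-pMirn378 the ratio was -0.48 (adjusted p = 0.496 in limma). The difference between the lines in this ratio was not called (log2 1.38, SE 0.658, adjusted p = 0.332 in limma).

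Among the dim members, 2 were called in C2C12-pMirn0 at d6. Kcnj16, an inward rectifier subunit that works with partners of its family, had 46.6, 31.2 and 59.3 AEV with BMP2, against 5.03, 7.73 and 6.76 (log2 2.79, SE 0.723, adjusted p = 0.00383 in limma). Kcnn3, a small-conductance calcium-activated channel, had 8.23, 6.21 and 9.01 with BMP2, against 64.3, 38.2 and 65.6 (log2 -2.82, SE 0.74, adjusted p = 0.00423 in limma). Both calls were lost without any 1 of the 6 arrays, and with values under 50 set to 50 the log2 ratios were 0.08 and -0.25. The second probe set of Kcnj16, also dim, was not called there (log2 2.10, adjusted p = 0.0248) but was called in C2C12-pMirn0 at d3 (log2 2.78, adjusted p = 0.00379).

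A narrower basis for the error ended further calls and also added some. At d6 in each line, the counts below include a call that the fit of all arrays did not make. Such added calls are not named here. With only the 6 arrays of a comparison in the fit, which leaves 4 degrees of freedom for error in place of 20, 6 members were called in C2C12-pMirn378 at d3, 4 in C2C12-pMirn378 at d6, 5 in C2C12-pMirn0 at d3 and 7 in C2C12-pMirn0 at d6. The calls lost there were those of Kcnd1 and Kcnk5 in C2C12-pMirn378 at d3, of Kcnh1, Kcnj12 (adjusted p = 0.0131), Kcnk2, Kcnk5, Kcnma1, Kcnmb1 and Kcnn1 in C2C12-pMirn378 at d6, of Kcnk5, Kcnk13, Kcnmb4 and Kcnn1 in C2C12-pMirn0 at d3, and of Kcnma1 and Kcnn4 (0.00669) in C2C12-pMirn0 at d6. The skeletal muscle markers, lower in 7 of 7 in all 4 comparisons, and the osteoblast markers, higher in 3 to 5 of 5, moved with these genes. The dividing-cell markers were higher in 4 of 5 in C2C12-pMirn378 at d3 (summed AEV 12360 to 12570 with BMP2, against 3224 to 4294) and in 2 of 5 in C2C12-pMirn0 (3110 to 3475, against 1876 to 2112), and at d6 they were lower in 3 of 5 and 2 of 5. Of the 5 smooth muscle markers, Cnn1 was higher in all 4 comparisons (387.5 AEV with BMP2 in C2C12-pMirn378 at d6, against 23.28) and Des was lower, and the list's sum was 31620 to 35350 in C2C12-pMirn378 with BMP2 at d6, against 34730 to 41900. The part of these markers in the changes was not tested.

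The comparison of the lines asked whether miR-378 overexpression went along with other channel gene levels. At d0 and in untreated cells at d3 and d6, none of the 84 members was called in either direction, where 0.262% of all probe sets were called higher and 0.501% lower at d0, 0.233% and 0.186% at d3, and 0.106% and 0.0532% at d6. At an unadjusted p under 0.05 the fit found 9, 5 and 7 of the 84 members. The share of all probe sets at this cut was not computed, so these counts and those below have no background to be read against. The 95% intervals of the 29 genes that were not dim had a median half-width of 0.683 on the log2 scale and reached 1.7. Smaller differences were therefore not detectable for many of them. The intervals are not adjusted for multiple testing and a call is stricter, so differences beyond the half-width could also go uncalled. For Kcnn4 and Kcnf1 the half-widths were 0.351 and 0.275.

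The lowest adjusted p at d0 was that of Kcnq1ot1, the non-coding antisense transcript of the Kcnq1 locus that silences neighbouring imprinted genes, and it is named after its values were seen. It had 193, 234 and 241 AEV in C2C12-pMirn378 and 125, 133 and 124 in C2C12-pMirn0 at d0, without overlap (log2 0.81, SE 0.199, adjusted p = 0.026 in limma). At d6 with BMP2 its log2 ratio was 0.01. Of its 5 other probe sets, none was called between the lines, and 2 were called lower with BMP2 than without it in C2C12-pMirn378 at d3 (log2 -1.29 and -1.57, adjusted p = 0.00334 and 0.00209 in limma), which the brightest was not (log2 -0.25, adjusted p = 0.384).

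With BMP2 at d3, 1 member was called higher in C2C12-pMirn378 (1.19%, against 1.61% of all probe sets) and none lower (1.46% of all). An unadjusted p under 0.05, a cut without a background share here, was found for 4 of the 84. The called gene was the dim modifier subunit Kcns1, with 30.8, 7.64 and 14.9 AEV in C2C12-pMirn378, against 2.28, 2.31 and 3.42 in C2C12-pMirn0 (log2 2.53, SE 0.498, adjusted p = 0.00113 in limma). These levels are at the bottom of the scale, and the call was lost without C2C12-pMirn378 replicate 1, C2C12-pMirn0 replicate 1 or C2C12-pMirn0 replicate 2 (adjusted p up to 0.0124). With values under 50 set to 50 the ratio was 0. The sum of the 5 markers of dividing cells differed between the lines there, at 12360 to 12570 AEV in C2C12-pMirn378 and 3110 to 3475 in C2C12-pMirn0.

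With BMP2 at d6, Kcnf1 alone was called higher (1.19% of members, against 0.993% of all probe sets) and none lower (0.836% of all). An unadjusted p under 0.05 was found for 13 of the 84, again without a background share, so this count shows no excess among the members. The Kcnf1 values of 1378, 1171 and 1232 AEV in C2C12-pMirn378 lay above the 639, 710 and 618 in C2C12-pMirn0, a log2 ratio of 0.94 (SE 0.132, adjusted p = 4.41e-05 in limma). At d3 with BMP2 the 1263, 884 and 928 AEV in C2C12-pMirn378 overlapped the 1031, 927 and 895 in C2C12-pMirn0 (log2 0.09, adjusted p = 0.792 in limma). The dividing-cell markers did not stand apart at d6, with sums of 1704 to 1875 in C2C12-pMirn378 and 1802 to 1856 in C2C12-pMirn0, while the osteoblast markers did, with 4 of 5 called higher in C2C12-pMirn378, and the skeletal muscle markers, with 4 of 7 called lower.

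A second probe set of Kcnf1 had 338, 283 and 295 AEV in C2C12-pMirn378 with BMP2 at d6 and 189, 171 and 217 in C2C12-pMirn0. These arrays did not overlap either, but the difference was not called (log2 0.67, SE 0.433, adjusted p = 0.466 in limma). With only the 6 arrays of the comparison in the fit, the brighter probe set of Kcnf1 lost its call too (adjusted p = 0.0413).

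The interaction asked whether the BMP2 effect differed between the lines, as the BMP2 log2 ratio in C2C12-pMirn378 minus that in C2C12-pMirn0. At d3 no member was called (0.647% of all probe sets were called higher and 0.594% lower). At d6, Kcnf1 was called higher (1.19%, against 0.588% of all probe sets) and none was called lower (0.687% of all). An unadjusted p under 0.05 was found for 9 of the 84 members at d3 and for 8 at d6, without a background share. For Kcnf1 the difference at d6 was 1.13 on the log2 scale (SE 0.187, adjusted p = 0.000706 in limma), made up of a BMP2 log2 ratio of 3.51 in C2C12-pMirn378 and of 2.38 in C2C12-pMirn0.

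Leaving out any 1 of the 12 arrays kept this call of Kcnf1 (1.04 to 1.22, adjusted p at most 0.00332), and fitting those 12 arrays alone ended it (adjusted p = 0.0173). On the second probe set the difference was 0.09 (SE 0.612, 95% interval -1.18 to 1.36), where the untreated values were between 6.23 and 34.4 AEV at d6 and so far below the overall median. That interval also holds the value of the brighter probe set.

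Other members differed between the lines at d6 with BMP2 without passing the test. Kcnt2 had 26.4, 24.5 and 21.6 AEV in C2C12-pMirn378, against 98.6, 94.6 and 106 in C2C12-pMirn0, a log2 ratio of -2.05 with a 95% half-width of 1.7 (adjusted p = 0.157 in limma). Kcnma1 had 77.0, 74.4 and 70.2, against 116, 147 and 154 (log2 -0.91, half-width 1.41, adjusted p = 0.557 in limma). Kcnmb4 had 194, 236 and 173, against 288, 266 and 257 (log2 -0.44, adjusted p = 0.257), and Kcnc2 had 176, 160 and 153, against 117, 97.8 and 118 (log2 0.56, adjusted p = 0.122). In all, 9 of the 29 genes had lines without overlap in this group, 3 higher and 6 lower in C2C12-pMirn378, of which 1 was called. Of all probe sets that were not dim, 16.8% were higher and 17.5% lower without overlap in the same group. These genes were chosen after their values were seen. With values under 50 set to 50, Kcnt2 and Kcnma1 were called lower in C2C12-pMirn378 (log2 -0.99 and -0.91). That setting makes the 3 Kcnt2 values of C2C12-pMirn378 equal and removes the spread of other low values. These calls therefore do not measure the spread between replicates.

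**Figure D4:**
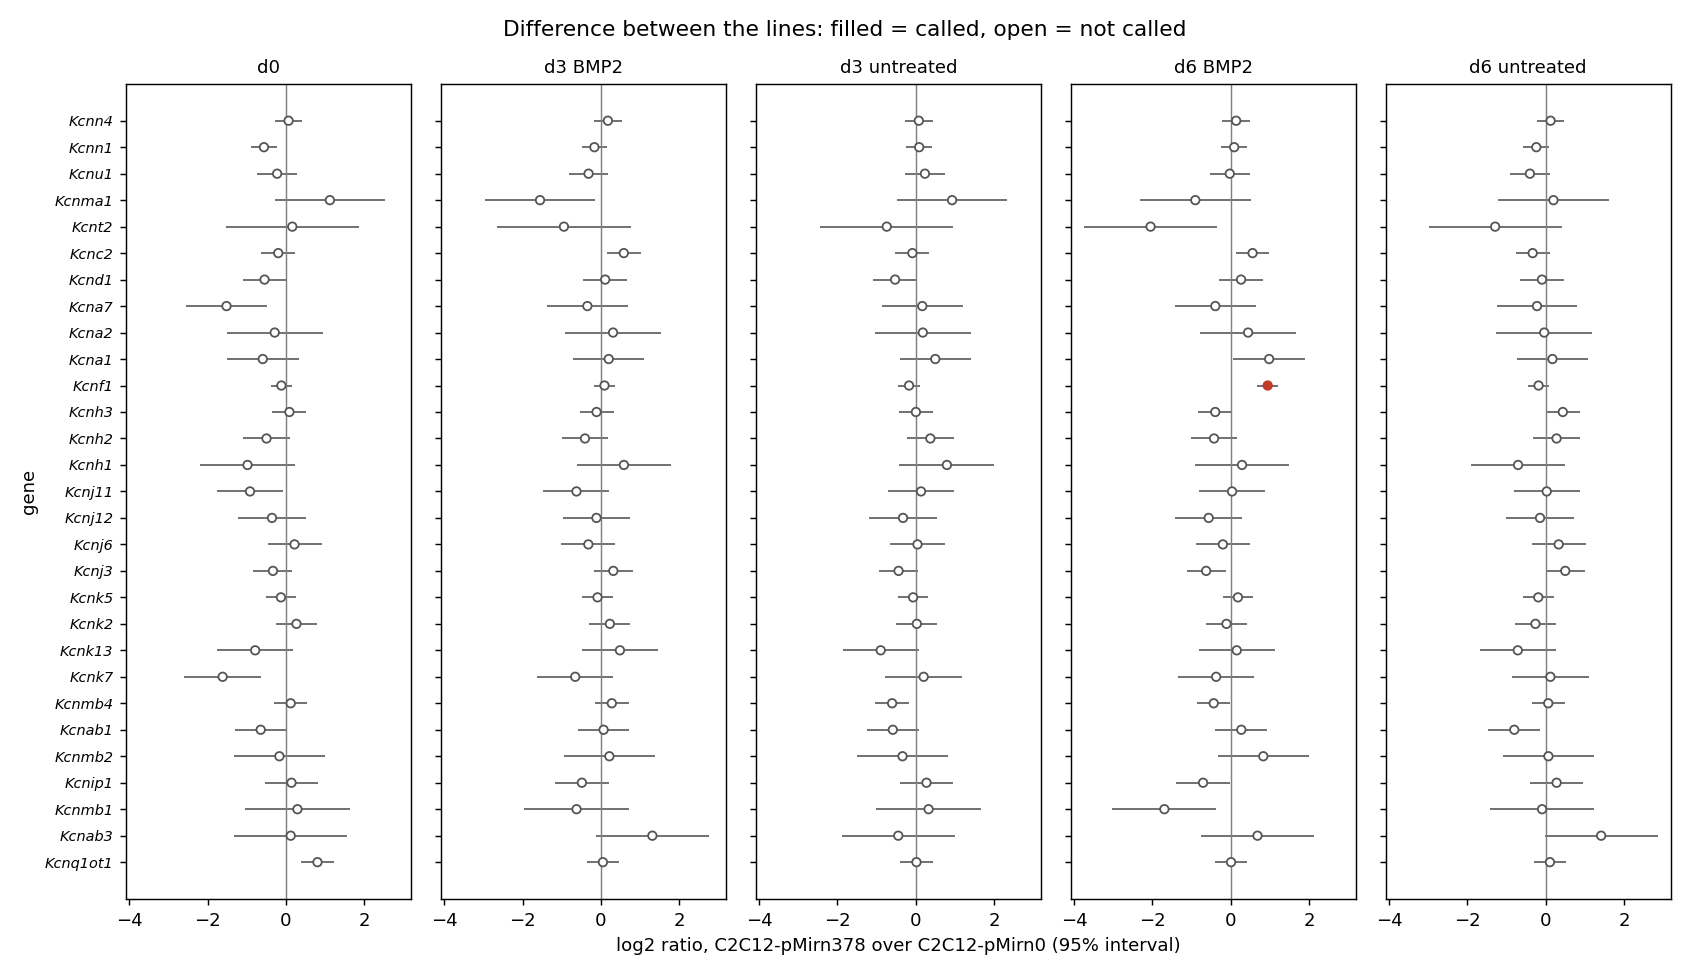
Log2 ratio of C2C12-pMirn378 over C2C12-pMirn0 in each of the 5 conditions for the 29 genes that were not dim, with 95% intervals and a filled point for a call. The only filled point is Kcnf1 at d6 with BMP2, at 0.94.

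Of the 2 brightest members without a call, Kcnj11, the pore of the ATP-sensitive channel, had 108, 448 and 260 AEV with BMP2 at d6 in C2C12-pMirn378, against 460, 461 and 424, and 192, 173 and 354 in C2C12-pMirn0, against 424, 448 and 448. The replicates with BMP2 were widely spread, and the log2 ratios of -0.95 in both lines were not called (SE 0.406, adjusted p = 0.0817 and 0.0764 in limma). Kcnh3, an EAG-family channel known from brain, stayed between group means of 140 and 205 AEV in all 10 groups, and 3 other probe sets of the gene were called in none of the comparisons.

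Besides Kcnq1ot1, the other 9 genes that were not dim and not called include the muscle channel Kcna7, with group means from 24.0 AEV at d0 in C2C12-pMirn378 to 115 at d3 without BMP2 in the same line, and Kcnh2, the EAG-family channel known for heart repolarization, with 50.7 to 115. The means of the inward rectifiers Kcnj3 and Kcnj6 ranged over 57.0 to 98.8 and 66.8 to 115, and those of the two-pore gene Kcnk7 over 25.7 to 87.8. Kcna1 ranged over 17.8 to 77.0, Kcna2 over 38.6 to 76.5, Kcnmb2 over 33.9 to 92.6 and Kcnip1 over 39.5 to 83.5. The highest value of any dim member on any array was 119 AEV.

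Beside the channels, 23 genes of partners and of other ion transport were read: receptors and auxiliary subunits of potassium channels, HCN channels, muscle sodium, chloride and calcium channels, sodium pump subunits and cation chloride cotransporters. In control differentiation without BMP2, 8 rose and 1 fell, and with BMP2, 4 rose and 2 fell. Of all probe sets, 8.7% rose and 10.3% fell without BMP2, and 9.08% rose and 8.52% fell with it. The list was drawn up to include muscle channels, and Cacna1s, Cacna2d1, Cacnb1 and Cacng1 were among the rises without BMP2. Its counts therefore describe this choice of genes. With BMP2 against untreated cells, 4 were higher and 6 lower in C2C12-pMirn378 at d3, 3 and 8 at d6, 3 and 6 in C2C12-pMirn0 at d3 and 2 and 8 at d6. In these comparisons 8.63% to 9.92% of all probe sets were higher and 6.75% to 8.71% lower.

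Cacna1s, the voltage sensor of skeletal muscle, averaged 25.6 AEV in C2C12-pMirn378 with BMP2 at d6, against 1006 without it, and 62.6 in C2C12-pMirn0, against 1162 (log2 -5.48 and -4.24, adjusted p = 1.12e-12 and 9.66e-11 in limma). Atp1b1, a beta subunit of the sodium pump, averaged 315, against 3092, and 275, against 3169 (log2 -3.31 and -3.53). Abcc9, the sulfonylurea receptor of muscle-type ATP-sensitive channels, averaged 7.92, against 70.0, and 8.51, against 79.0 (log2 -3.78 and -3.71, adjusted p = 0.00116 and 0.00136 in limma). Lrrc26, an auxiliary gamma subunit of BK, averaged 48.8, against 396, and 50.1, against 510 (log2 -3.10 and -3.38), and so was lower with BMP2 at d6 in both lines, where Kcnma1 was higher.

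Fxyd5, a modulator of the sodium pump, was higher with BMP2, averaging 1964 AEV in C2C12-pMirn378 at d6, against 234, and 1194 in C2C12-pMirn0, against 117 (log2 3.07 and 3.37). Atp1b3, another sodium pump beta subunit, was called higher with BMP2 in C2C12-pMirn378, averaging 10930 and 10370 AEV at d3 and d6, against 5713 and 4537, while C2C12-pMirn0 had 6653 and 4815, against 5492 and 4859. Its BMP2 effect differed between the lines by 0.66 at d3 and 1.21 at d6 on the log2 scale (adjusted p = 0.00055 and 3.32e-07 in limma). Between the lines with BMP2 at d6, 3 partner genes were called higher in C2C12-pMirn378 (Atp1b3, Fxyd1 and Fxyd5) and 2 lower (Cacna1s and Cacnb1), where 0.993% of all probe sets were higher and 0.836% lower. Fxyd5 was called higher in C2C12-pMirn378 without BMP2 too, at d3 and d6 (log2 0.72 and 1.02, adjusted p = 0.00106 and 3.15e-05 in limma). Its BMP2 effect at d6 did not pass the test of the difference between the lines (log2 -0.30, adjusted p = 0.402 in limma).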

How the data were processed

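The authors amplified and labelled total RNA, hybridized the amplified RNA to Affymetrix GeneChip Mouse Genome arrays and, per the labels and methods, summarized probe sets with RMA and quantile normalization in R 2.4.1. The deposited values are linear-scale intensities with no detection calls, so the number of arrays limits the precision. Array medians were 68.0 to 82.7 and the lowest value was 0.0561, so the arrays as deposited did not share 1 distribution. Whether the stated normalization gave these values was not tested. The lowest correlation between replicates was 0.948.

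Here log2 intensities of all 30 arrays were fitted with group means in limma 3.58.1 (R 4.3.3, prior degrees of freedom 1.2, residual 20), with Benjamini-Hochberg adjustment per comparison over 45101 probe sets. The thresholds for line differences and for differentiation over d0 are those of the study's methods. The methods give no rule for BMP2 against untreated cells or for the interaction, so the rule for line differences was used. Symbols came from the platform table, and all 84 members matched RefSeq by Entrez number. The fit was tested on simulated data. Named were the 8 brightest members, up to 5 called rises and 5 falls per comparison among genes that were not dim, up to 2 dim calls, and up to 4 partners per direction. Members and lists were chosen with earlier results of these data known. Alternatives covered scaling, low values, the fit (a replicate block among them), a rule of taking the brightest probe set not ending in _x_at or _s_at, and each left-out array.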

Additional observations from a re-analysis of the deposited data

Results flagged for a closer look

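The BMP2 effect on Kcnf1 at d6 differed between the lines by 1.13 on the log2 scale by the interaction test (adjusted p = 0.000706 in limma), with 1378, 1171 and 1232 AEV in C2C12-pMirn378 and 639, 710 and 618 AEV in C2C12-pMirn0 with BMP2. The untreated arrays of the lines overlapped. The osteoblast markers also differed between the lines in this group, and their part in the difference was not tested. BMP2 effects were taken as opposite only where the arrays with and without BMP2 did not overlap in either of the 2 comparisons. By this rule, no member that was not dim had opposite effects between the lines at a given day or between the days within a line. Ratios of opposite sign outside this rule occurred. For Kcnj3 at d6 they were -0.68 in C2C12-pMirn378 and 0.445 in C2C12-pMirn0 (adjusted p of the interaction 0.0681 in limma).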

How the results depend on the processing

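Of 54 called log2 ratios of single genes, 54 remained called with a mean-variance trend and robust fit, 53 with an offset of 16 and 52 with quantile normalization. With the arrays scaled to 1 median 50 remained called, and with values under 50 set to 50 it was 44. Only the arrays of the comparison in the fit, which has fewer degrees of freedom for error, left 34. All 51 ratios of genes that are not dim remained called with dim probe sets left out. Taking the brightest probe set not ending in _x_at or _s_at chose the same probe sets for these genes. That rule could therefore not change a call. No ratio changed sign under these settings. The scaling moved the median of all probe sets from -0.04 to -0.14 for BMP2 over untreated C2C12-pMirn378 cells at d3.

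Counts of members called changed as follows. In control differentiation without BMP2, 10 members were called with only the comparison's arrays, against 4 rises and 4 falls with all arrays. With only the arrays of the comparison, C2C12-pMirn378 at d6 had 2 higher and 2 lower with BMP2, C2C12-pMirn0 at d3 had 3 higher, and the calls between the lines with BMP2 at d3 and d6 and for the interaction at d6 each went to 0. Without dim probe sets, 0 members were higher between the lines at d3 with BMP2. An offset of 16 gave 1 lower between the lines with BMP2 at d3 and 1 at d6. With values under 50 set to 50, 4 members fell in control cells with BMP2 and 2 were lower with BMP2 in C2C12-pMirn378 at d6. The same setting gave 1 lower between untreated lines at d6 (Kcnab1), 2 lower between lines with BMP2 at d6 (Kcnma1 and Kcnt2), and for the interaction at d6 it gave 2 higher (Kcnab1 joining Kcnf1) and 2 lower (Kcnma1 and Kcnt2). At d3 with BMP2 it called Kcnab3 and not Kcns1 between the lines. Setting low values to 50 removes their spread, so the p-values of calls added this way do not measure the spread between replicates. Causes were not tested.

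Leaving out each array in turn gave 0 to 1 higher between the lines with BMP2 at d3 (0 without replicate 1 or 2 of C2C12-pMirn0 or replicate 1 of C2C12-pMirn378). In C2C12-pMirn378 it gave 1 to 2 lower with BMP2 at d3 (1 without untreated replicate 1) and 3 to 6 higher at d6 (3 without untreated replicate 2 or 3 or BMP2 replicate 2).

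Arrays of the same replicate number in different groups deviated together at most weakly (135 pairs of arrays, median r = 0.0229, range -0.107 to 0.125, 6 over 0.1). For pairs of different numbers the median r was -0.0104 (270 pairs). Of the 30 arrays, 16 correlated best with an array of their own number, and whether replicate numbers mark a shared batch was not tested. With the replicate block, 50 of the 54 ratios remained called, and Kcnh1 and Kcnma1 in C2C12-pMirn378 at d6 and Kcnma1 at d3 and Kcnj16 at d6 in C2C12-pMirn0 did not (adjusted p = 0.00724, 0.00556, 0.00515 and 0.00604 in limma). The block gave 4 higher in C2C12-pMirn378 at d6 and 5 higher in C2C12-pMirn0 at d3.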
